A study of Mus musculus with 4 samples.

Results

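A set of 10 genes that low oxygen is known to induce, all outside glycolysis, were followed through bulk RNA-seq of mouse mammary tumours: Ak4, Hilpda, Bnip3, Adm, Ankrd37, Ndrg1, P4ha2, Car9, P4ha1 and Egln3. They were matched by symbol, 1 row each, and all 10 were found among the 20555 genes of the deposited table. The libraries fell into 2 groups of 2 mammary tumour samples. MYC-PyMT tumours carried the genotype S100a8-creRosa26-LSL-MYCPyMT, in which Cre is driven by S100a8, a gene most active in neutrophils, and opens a MYC allele held behind a stop cassette at Rosa26. Control-PyMT tumours carried PyMT alone, and both groups share PyMT, the polyoma virus middle T antigen that drives mammary tumours. The labels give no strain, age, tumour stage or oxygen measurement, and neither group is described as exposed to low oxygen. Whether the replicates are separate animals is also not stated, so every p-value here reflects library-to-library spread that could be technical. In bulk tumour, fewer cells of a type and less RNA per cell cannot be told apart.

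Cells sense oxygen through hypoxia-inducible factors (HIFs). When oxygen is plentiful, prolyl hydroxylases mark the HIF alpha subunits for destruction by the VHL ubiquitin ligase. When oxygen falls, the alpha subunits persist, pair with ARNT and bind a short DNA core, ACGTG or GCGTG, in the hypoxia response elements of target genes. The 10 genes cover several arms of this response: a feedback brake on HIF (Egln3), acid balance (Car9), mitochondria and energy (Bnip3, Ak4), lipid storage (Hilpda), collagen maturation (P4ha1, P4ha2), a secreted vascular peptide (Adm), and proteins whose roles are less settled (Ndrg1, Ankrd37). MYC binds a related hexamer, the E-box CACGTG, which contains the first form of that core.

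The promoters of the 5 genes that passed the expression test are shown because both kinds of motif were searched there. Sequence further from the starts was not searched. Capitals mark the HIF core, ACGTG or GCGTG, on either strand. For Ak4, Bnip3, P4ha1 and Egln3 the 250 bases before the annotated start are given, 5′ to 3′ on the gene's strand. For another Ak4 start and for Hilpda, 30 bases around a match are given, picked after the matches were seen. All are RefSeq sequences of the mouse build GRCm38.p6.
Ak4 (chr4:101419039-101419288, plus strand): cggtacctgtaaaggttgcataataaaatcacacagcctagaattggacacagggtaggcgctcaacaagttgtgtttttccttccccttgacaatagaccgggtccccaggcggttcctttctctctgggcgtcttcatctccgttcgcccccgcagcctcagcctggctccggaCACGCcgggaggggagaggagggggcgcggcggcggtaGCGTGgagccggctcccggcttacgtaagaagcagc
Ak4, start 4 (chr4:101419477-101419506, plus strand): tcccactctgccCACGTGcggggaccggca
Hilpda (chr6:29272571-29272600, plus strand): gatggccagcggACGTGccccagggcgagc
Bnip3 (chr7:138909507-138909756, minus strand): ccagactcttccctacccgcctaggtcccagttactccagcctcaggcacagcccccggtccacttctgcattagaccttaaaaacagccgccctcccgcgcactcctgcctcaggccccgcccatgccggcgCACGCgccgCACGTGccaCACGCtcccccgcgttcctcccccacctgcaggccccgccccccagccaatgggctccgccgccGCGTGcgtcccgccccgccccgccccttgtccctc
P4ha1 (chr10:59323046-59323295, plus strand): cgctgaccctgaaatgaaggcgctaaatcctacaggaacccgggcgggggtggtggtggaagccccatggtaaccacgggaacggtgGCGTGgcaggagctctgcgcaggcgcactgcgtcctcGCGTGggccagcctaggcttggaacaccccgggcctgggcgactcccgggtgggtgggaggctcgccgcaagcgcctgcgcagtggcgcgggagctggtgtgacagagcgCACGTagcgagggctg
Egln3 (chr12:54203875-54204124, minus strand): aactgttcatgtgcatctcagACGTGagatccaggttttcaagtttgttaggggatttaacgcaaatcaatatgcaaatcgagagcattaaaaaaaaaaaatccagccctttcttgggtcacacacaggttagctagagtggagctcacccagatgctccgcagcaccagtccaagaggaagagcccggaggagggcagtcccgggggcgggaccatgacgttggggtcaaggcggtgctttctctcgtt

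RefSeq gave promoter windows, from 250 bases before to 50 bases after a start, for 9 of the 10 genes, Ndrg1 being the other, and these made 13 windows because Ak4 has 4 starts and Hilpda 2. ACGTG or GCGTG lay in all 13 windows, against 43.8% of all 32851 mouse windows of the same length. ACGTG lay in 8 of the 13 windows, against 19.6% of all windows, and GCGTG in 11 of the 13, against 32.4%. Counted by gene over all its starts, 8 of the 9 had ACGTG and 7 of the 9 had GCGTG. The E-box was found in Bnip3, 108 to 103 bases before the start, and at Ak4 start 4, 214 to 209 bases before it; 7.15% of all windows hold one. Both E-boxes therefore count also as ACGTG on each strand. No E-box was found in the other windows, including those of Hilpda, Egln3 and P4ha1 and of the other 3 Ak4 starts. Car9 had a single match, ACGTG on the opposite strand, 18 to 14 bases before its start. Overlapping windows of 1 gene are not independent, and a match describes letters, not binding. The genes were chosen as known hypoxia-induced genes, so their matches are no test. Their windows held 50.7% to 72.7% G and C, and the share over all windows was not matched for this.

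**Figure D1:**
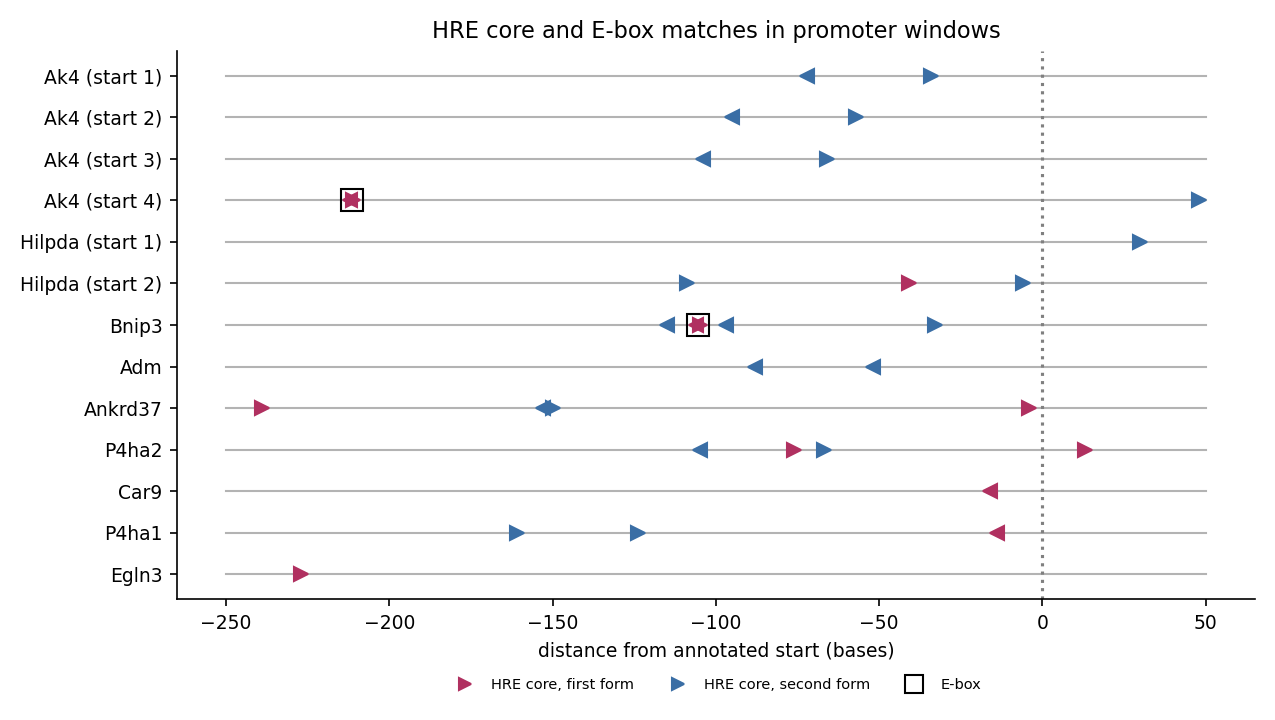
Matches to the HIF core (first form ACGTG, second form GCGTG) and to the E-box in the promoter windows of 9 genes, by distance from the annotated start in bases on the gene's strand. Triangles point along the strand that holds the match, squares mark the E-box CACGTG. All 13 windows hold at least 1 core match, and an E-box is seen in Bnip3 and at Ak4 start 4.

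The deposited values are scaled counts, that is, read counts divided by a size factor per library, not by gene length. They sum to 34408600 and 34928670 in MYC-PyMT replicates 1 and 2 and to 30155560 and 27926570 in Control-PyMT replicates 1 and 2. A gene was tested where its value reached 10 in at least 2 libraries, and it was called where limma's adjusted p was under 0.05. All 10 genes were tested, and the lowest value of any of them in any library was 159.7 scaled counts. Luminal keratin Krt8, a marker of the labelled tissue, was high in every library, with 22211 and 28747 scaled counts in MYC-PyMT and 28743 and 27667 in Control-PyMT. Of 10 luminal markers, 0 were called higher (limma; 1 was at an unadjusted p under 0.05) and 6 lower, with a median log2 change of -0.59. The lower ones were Pgr, at a log2 change of -7.88, Foxa1, Esr1, Gata3, Cdh1 and Krt19, so Krt8 does not stand for the list. With 1 library left out, Cdh1 lay between -0.71 and -0.53 and Krt19 between -0.75 and -0.39. Neither of these calls held throughout. Mouse Myc had 3215 and 2815 scaled counts in MYC-PyMT, against 1832 and 2820 in Control-PyMT, so the groups overlapped (log2 change 0.40, SE 0.23, adjusted p = 0.172). The labels do not say whether the added MYC allele is of mouse or human sequence, so that gene does not check them.

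Of the 10 hypoxia-induced genes, Ak4, Hilpda and Bnip3 were called higher in MYC-PyMT tumours, Egln3 and P4ha1 were called lower, and 5 did not pass the test. Among all 16725 genes tested, 47.9% were called, 23.3% higher and 24.6% lower, so a count of 5 in 10 is near the background. The same shares stand beside the calls of every related list and marker list from the 4 libraries. The groups did not overlap for 8 of the 10, 5 higher and 3 lower, against 75.7% of all tested genes, 37% higher and 38.7% lower. The median log2 change was 0.82 over the 10 genes and -0.02 over all genes tested. The median of the 10 depended on single libraries, at 0.22 without MYC-PyMT replicate 2 and 1.27 without MYC-PyMT replicate 1. It was 0.49 with the length trend removed. The genes thus moved in both directions between the groups, and their number of calls does not set them apart from other genes. Leaving out 1 library changed the calls. Without MYC-PyMT replicate 1, 6 were higher and 0 lower (limma; 1 was lower at an unadjusted p under 0.05), with 38.7% of all genes called. Without MYC-PyMT replicate 2, 2 were higher and 3 lower, with 35.7% of all genes called. Without Control-PyMT replicate 1, 4 were higher and 1 lower (41.5% of all genes called), and without Control-PyMT replicate 2, 2 were higher and 2 lower (38.6%). Under the other settings 2 to 6 of the 10 were higher and 1 or 2 lower. The share of all genes called was then 47.5% and 48.6% with pseudocounts of 0.5 and 5, 40.7% and 51.3% with no level filter and a filter of 50, 47.9% and 48.1% with TMM and upper-quartile scaling, 41.5% without the variance trend, 48.1% with a replicate block, 44.8% with the length trend removed and 56.2% at an adjusted p under 0.10.

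**Figure D2:**
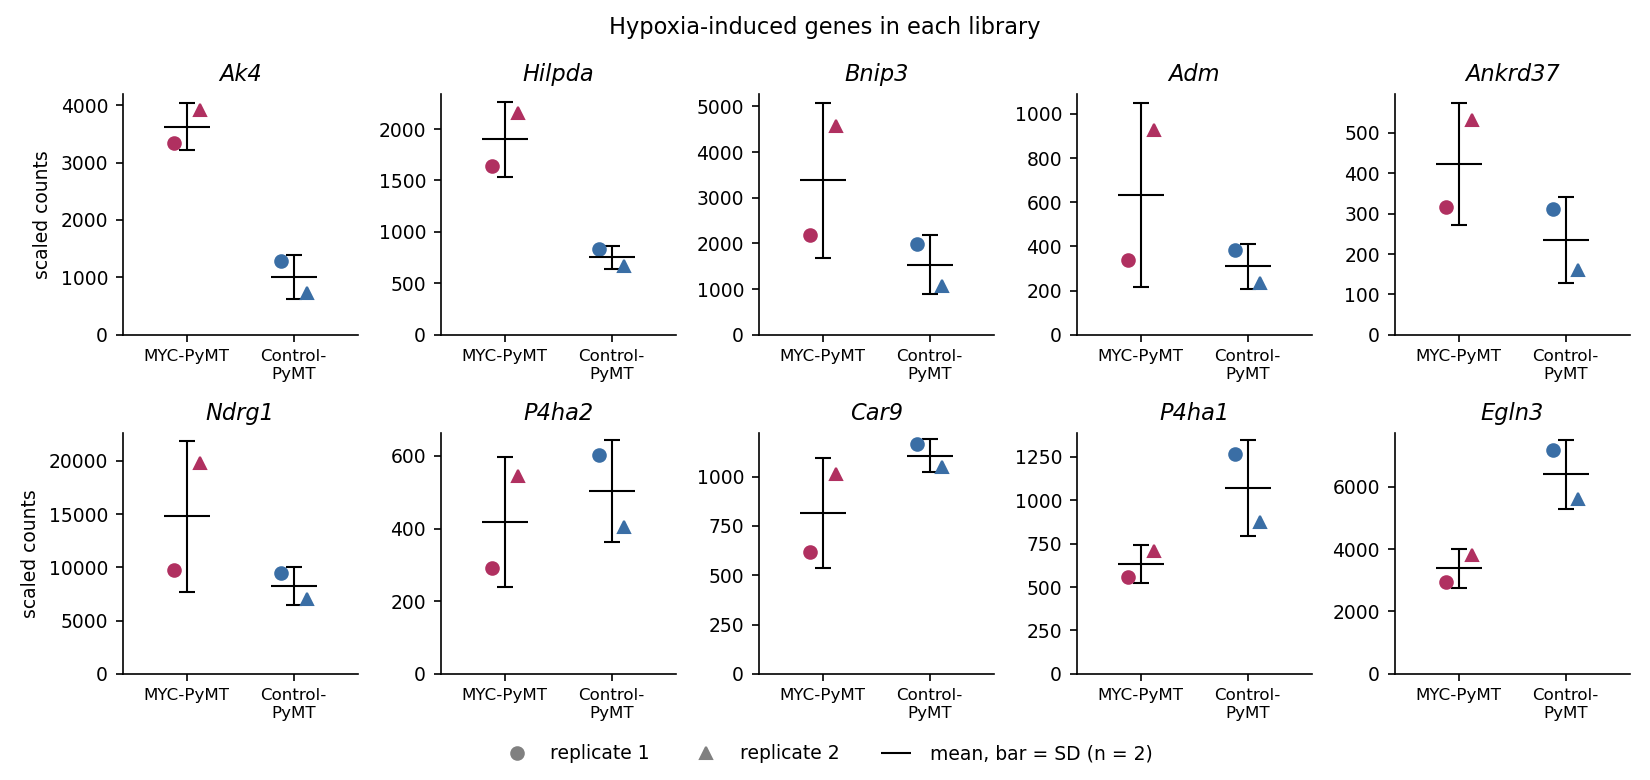
Scaled counts of the 10 genes in each library, MYC-PyMT on the left and Control-PyMT on the right of each panel; circles are replicate 1, triangles replicate 2, lines the mean and bars the SD (n = 2 each). In every panel replicate 2 is the higher MYC-PyMT library and replicate 1 the higher Control-PyMT library.

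The energy and mitochondrial genes were among those that rose. Ak4 encodes an adenylate kinase of the mitochondrial matrix, which exchanges phosphates between adenine nucleotides. The gene (ENSMUSG00000028527.18, chr4:101419277-101466995, plus strand) had 3335 scaled counts in MYC-PyMT replicate 1 and 3912 in replicate 2, against 1282 and 733 in Control-PyMT. Both MYC-PyMT libraries were above both Control-PyMT libraries, by more than the gap between replicates. Means were 3624 ± 408 in MYC-PyMT and 1008 ± 388 in Control-PyMT (SD, n = 2 each). The log2 change was 1.90 (SE 0.26, 95% interval 1.31 to 2.48, limma adjusted p = 0.000335), which is 3.72-fold. With any 1 library left out the log2 change lay between 1.49 and 2.30 and the call held. Its paralogue Ak3, which like Ak4 belongs to the matrix, had 10436 and 7161 in MYC-PyMT and 10225 and 8239 in Control-PyMT, and these overlapped (log2 change -0.09, adjusted p = 0.778).

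Bnip3 encodes an outer mitochondrial membrane protein that recruits the machinery for mitophagy, the removal of mitochondria. It (ENSMUSG00000078566.8, chr7:138890836-138909519, minus strand) had 2185 scaled counts in MYC-PyMT replicate 1 and 4578 in replicate 2, against 1990.1 and 1075 in Control-PyMT. The groups did not overlap, but MYC-PyMT replicate 1 was close to Control-PyMT replicate 1. Means were 3382 ± 1692 in MYC-PyMT and 1533 ± 647 in Control-PyMT (SD, n = 2 each; log2 change 1.11, SE 0.36, 95% interval 0.31 to 1.92, adjusted p = 0.0285), a 2.16-fold difference. The call ended without MYC-PyMT replicate 2 (log2 change 0.58, adjusted p = 0.162) and without Control-PyMT replicate 2 (0.67, adjusted p = 0.245). It also ended under upper-quartile scaling, without the variance trend, or when each library's trend with gene length was removed (adjusted p of 0.0514, 0.110 and 0.0526). Its paralogue Bnip3l, also a mitophagy receptor, had 5155 and 5949 in MYC-PyMT and 5690 and 3802 in Control-PyMT and did not pass (log2 change 0.25, adjusted p = 0.380). Of 12 mitophagy genes, 1 was higher and 0 were lower (limma; 1 was lower at an unadjusted p under 0.05), with a median log2 change of -0.22. At an adjusted p under 0.10, 2 were lower, and 1 was without MYC-PyMT replicate 1 or Control-PyMT replicate 2. The higher one was Phb2, an inner membrane prohibitin, at 15150 and 16757 in MYC-PyMT, against 5592 and 4839 in Control-PyMT (log2 change 1.61, adjusted p = 0.000135).

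The lipid gene rose as well. Hilpda encodes a small lipid droplet protein that inhibits the triglyceride lipase encoded by Pnpla2. It (ENSMUSG00000043421.8, chr6:29272488-29275446, plus strand) had 1642 scaled counts in MYC-PyMT replicate 1 and 2157 in replicate 2, against 833 and 671 in Control-PyMT. Both MYC-PyMT libraries were higher, by more than the difference within either group. Means were 1899.8 ± 364 in MYC-PyMT and 752 ± 115 in Control-PyMT (SD, n = 2 each; log2 change 1.33, SE 0.22, 95% interval 0.84 to 1.82, adjusted p = 0.000927), a 2.52-fold difference. It was called with any 1 library left out, at log2 changes of 1.13 to 1.53. After removal of the length trend its log2 change was 0.91 (limma, adjusted p = 0.00566). Of 12 lipid droplet genes, 4 were higher and 0 lower (limma; 2 were lower at an unadjusted p under 0.05), with a median of 0.34. The higher ones were G0s2, which like Hilpda encodes an inhibitor of that lipase, Dgat1, which makes triglyceride, Plin2, which coats droplets, and Pnpla2 itself (log2 changes of 1.36, 0.80, 0.62 and 0.80; adjusted p of 0.00681, 0.0074, 0.0229 and 0.0341). Pnpla2 had 4125 and 3764 in MYC-PyMT, against 1663 and 3099 in Control-PyMT. G0s2 was called with any 1 library left out, but Pnpla2 was not called without Control-PyMT replicate 1 (log2 change 0.35) or MYC-PyMT replicate 1 (0.73), nor Plin2 without either MYC-PyMT replicate or Control-PyMT replicate 1 (0.47 to 0.77), nor Dgat1 without MYC-PyMT replicate 1 (0.73). Without Control-PyMT replicate 1, 2 of the list were higher and 2 lower, and without MYC-PyMT replicate 1, 1 was higher and 2 lower.

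The feedback gene fell. Egln3 encodes PHD3, one of the prolyl hydroxylases that mark HIF alpha subunits and itself a HIF target. It (ENSMUSG00000035105.5, chr12:54178981-54203860, minus strand) had 2943 scaled counts in MYC-PyMT replicate 1 and 3814 in replicate 2, against 7177 and 5608 in Control-PyMT. Both MYC-PyMT libraries were below both Control-PyMT libraries. Means were 3379 ± 616 in MYC-PyMT and 6392 ± 1109.6 in Control-PyMT (SD, n = 2 each; log2 change -0.92, SE 0.21, 95% interval -1.39 to -0.45, adjusted p = 0.00544), 1.89-fold lower in MYC-PyMT. Without MYC-PyMT replicate 1 the log2 change was -0.73 and the call ended (adjusted p = 0.0615). Its paralogue Egln1, the main HIF prolyl hydroxylase in most cells, went the other way, with 1785 and 2375 in MYC-PyMT, against 1244 and 1271 in Control-PyMT (log2 change 0.71, SE 0.20, adjusted p = 0.0167); that call ended without MYC-PyMT replicate 2 (0.51) or Control-PyMT replicate 1 (0.70). Egln2 had 2634 and 3330 in MYC-PyMT and 1810 and 2495 in Control-PyMT (log2 change 0.48, adjusted p = 0.0972).

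Among 11 tested HIF subunits, sensors and cofactors, 2 were higher, 2 lower and 7 did not pass, with a median log2 change of -0.25. Epas1, which encodes HIF-2 alpha and is strong in endothelium, fell to 563 and 614 in MYC-PyMT, against 1014 and 1776 in Control-PyMT (log2 change -1.19, SE 0.27, adjusted p = 0.00516). Arnt, the shared partner subunit, also fell (log2 change -0.56, adjusted p = 0.0289). Cited2, which competes with HIF for its coactivators, rose to 4294 and 5810.1 in MYC-PyMT, against 2951 and 3293 in Control-PyMT (log2 change 0.68, adjusted p = 0.0201). Hif1a had 3623 and 5324 in MYC-PyMT and 6729.7 and 4925 in Control-PyMT, overlapping (log2 change -0.39, adjusted p = 0.202). Epas1 was called with any 1 library left out. Cited2 was not called without MYC-PyMT replicate 2 or Control-PyMT replicate 1 (log2 changes of 0.46 and 0.60), nor Arnt without either MYC-PyMT replicate or Control-PyMT replicate 2 (-0.66 to -0.47). Without MYC-PyMT replicate 2 or Control-PyMT replicate 1, 0 genes of the list were higher. HIF alpha is controlled mainly through protein stability, which these libraries do not measure.

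Car9 encodes carbonic anhydrase IX, a surface enzyme that hydrates carbon dioxide outside the cell. It (ENSMUSG00000028463.14, chr4:43506966-43513729, plus strand) had 619.9 scaled counts in MYC-PyMT replicate 1 and 1014 in replicate 2, against 1167 and 1048 in Control-PyMT. Both MYC-PyMT libraries were lower, but replicate 2 lay close to the Control-PyMT values. Means were 817 ± 279 in MYC-PyMT and 1108 ± 84.2 in Control-PyMT (SD, n = 2 each; log2 change -0.48, SE 0.25, 95% interval -1.05 to 0.09, adjusted p = 0.145). Without MYC-PyMT replicate 2 it was called lower (log2 change -0.83, adjusted p = 0.0421). An antisense gene, Gm12454, overlaps Car9 and had 26.2 and 36.3 in MYC-PyMT, against 142 and 119 in Control-PyMT. No source used here gives the strand setting of the read counter, so reads could have been shared between them. Its paralogues moved in both directions: Car12, another surface enzyme known as a hypoxia target, fell (log2 change -0.89, adjusted p = 0.0053; not called without MYC-PyMT replicate 2, at -0.71) and cytosolic Car2 rose, to 5783 and 4174 in MYC-PyMT, against 1116 and 1309 in Control-PyMT (log2 change 2.02, adjusted p = 7.9e-05). Over 23 tested paralogues of the 10 genes, 6 were higher, 4 lower and 13 did not pass, with a median of 0.01.

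P4ha1 and P4ha2 encode alternative catalytic subunits of collagen prolyl 4-hydroxylase, which lets collagen form a stable triple helix. P4ha1 (ENSMUSG00000019916.14, chr10:59323296-59373304, plus strand) had 557 scaled counts in MYC-PyMT replicate 1 and 709.9 in replicate 2, against 1268 and 874 in Control-PyMT. Both MYC-PyMT libraries were lower, and means were 633 ± 108 in MYC-PyMT and 1071 ± 279 in Control-PyMT (SD, n = 2 each; log2 change -0.74, SE 0.24, 95% interval -1.29 to -0.20, adjusted p = 0.0304), 1.67-fold lower in MYC-PyMT. The call ended without MYC-PyMT replicate 1 (-0.57, adjusted p = 0.180), without Control-PyMT replicate 1 (-0.47, adjusted p = 0.158), without the variance trend (adjusted p = 0.0827) and after removal of the length trend (-0.61, adjusted p = 0.0745). P4ha2 (ENSMUSG00000018906.14, chr11:54100095-54131665, plus strand) had 291 and 544 in MYC-PyMT, against 603 and 405 in Control-PyMT, and these overlapped. Its means were 417 ± 179 in MYC-PyMT and 504 ± 140.0 in Control-PyMT (SD, n = 2 each; log2 change -0.31, SE 0.33, 95% interval -1.04 to 0.42, adjusted p = 0.454). Without MYC-PyMT replicate 1 the P4ha2 value turned positive, to 0.14 (adjusted p = 0.798).

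Among 11 genes for collagen hydroxylases and their partners, 2 were higher, 3 lower and 6 did not pass. Of all tested genes 23.3% were higher and 24.6% lower. The median of the 11 was 0.25. Under upper-quartile scaling 5 were lower. Plod2, a hypoxia-induced collagen lysyl hydroxylase, rose to 1541 and 3168 in MYC-PyMT, against 1228 and 951 in Control-PyMT (log2 change 1.03, adjusted p = 0.0202). That call needed all libraries but MYC-PyMT replicate 1, the log2 change being 0.51 without MYC-PyMT replicate 2. P3h1, a prolyl 3-hydroxylase, fell to 118 and 176 in MYC-PyMT, against 406 and 508 in Control-PyMT (log2 change -1.65, adjusted p = 0.00124), while its partner Crtap rose (0.83, adjusted p = 0.00864; not called without MYC-PyMT replicate 2, at 0.75). P4hb, the other subunit of the enzyme with P4ha1 or P4ha2, had 46995 and 43802 in MYC-PyMT and 36727 and 30684 in Control-PyMT and did not pass (log2 change 0.43, adjusted p = 0.124). Of 10 fibroblast markers, which tell of the main collagen-making cells, 2 were higher and 2 lower, with a median log2 change of -0.04. Their summed level was 23293 and 34046 scaled counts in MYC-PyMT and 23280 and 33092 in Control-PyMT. Their part in the P4ha1 difference was not tested. Without MYC-PyMT replicate 2, 0 genes of the hydroxylase list were higher, and without MYC-PyMT replicate 1 or Control-PyMT replicate 2, 1 was lower.

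Adm encodes adrenomedullin, a secreted peptide that widens vessels and acts on endothelium through the receptor Calcrl with Ramp2 or Ramp3. It (ENSMUSG00000030790.14, chr7:110627661-110629820, plus strand) had 340.2 scaled counts in MYC-PyMT replicate 1 and 929 in replicate 2, against 382 and 236 in Control-PyMT. The groups overlapped, since MYC-PyMT replicate 1 fell between the Control-PyMT values. Means were 634 ± 416 in MYC-PyMT and 309 ± 104 in Control-PyMT (SD, n = 2 each; log2 change 0.90, SE 0.43, 95% interval -0.05 to 1.85, adjusted p = 0.107). The value rested on which MYC-PyMT library was kept: 1.62 without replicate 1 (adjusted p = 9.86e-05) and 0.18 without replicate 2 (adjusted p = 0.764).

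The related peptide Adm2, which signals through the same receptors, rose to 574 and 1104 scaled counts in MYC-PyMT, against 52.4 and 34.0 in Control-PyMT (log2 change 4.21, SE 0.37, adjusted p = 3.03e-05). Ramp2 rose to 200.3 and 262 in MYC-PyMT, against 96.3 and 135 in Control-PyMT (log2 change 1.00, adjusted p = 0.0217), and Ramp3 to 101 and 201 in MYC-PyMT, against 57.0 and 45.0 in Control-PyMT (1.47, adjusted p = 0.0116). Ramp1, which with Calcrl forms the receptor for the peptide of Calca, fell to 296 and 286 in MYC-PyMT, against 1273 and 1080.4 in Control-PyMT (-2.01, adjusted p = 8.69e-05). Calca itself was near 0 in MYC-PyMT, at 1.01 and 2.20, against 51.4 and 34.0 in Control-PyMT. It passed the level minimum only through Control-PyMT, so its call as lower carries no weight. Calcrl had 447 and 401 in MYC-PyMT and 468 and 460.4 in Control-PyMT (-0.13, adjusted p = 0.649). In all, 3 of these 6 genes were called higher and 2 lower, Calca among the lower. Ramp2 was not called without MYC-PyMT replicate 2 or Control-PyMT replicate 1 (log2 changes of 0.81 and 0.76), nor Ramp3 without MYC-PyMT replicate 2 or Control-PyMT replicate 2 (0.98 and 1.30). Of 10 endothelial markers 5 were higher and 1 lower, against 23.3% higher and 24.6% lower among all tested genes. The higher ones were Egfl7, Cldn5, Cdh5, Esam and Emcn, and the lower one was Vwf, at a log2 change of -2.32. Cdh5 was not called without Control-PyMT replicate 1 (0.64), nor Esam without that library or MYC-PyMT replicate 2 (0.79 and 0.64). Emcn was called only without MYC-PyMT replicate 1 (0.95), its other values being 0.54 to 0.76. The markers had a median log2 change of 0.79, and their summed level was 5042 and 6313 in MYC-PyMT and 3000.1 and 3974 in Control-PyMT. Their part in the receptor genes' differences was not tested.

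Ndrg1 encodes a cytoplasmic protein of the N-myc downstream regulated family, named for its repression by N-myc, and is among the most strongly hypoxia-induced genes in many cells. It (ENSMUSG00000005125.12, chr15:66929318-66969640, minus strand) had 9739.6 scaled counts in MYC-PyMT replicate 1 and 19799 in replicate 2, against 9488 and 6992 in Control-PyMT. MYC-PyMT replicate 1 was barely above Control-PyMT replicate 1, and MYC-PyMT replicate 2 stood far above the other libraries. Means were 14769 ± 7113 in MYC-PyMT and 8239.8 ± 1765 in Control-PyMT (SD, n = 2 each; log2 change 0.77, SE 0.31, 95% interval 0.08 to 1.46, adjusted p = 0.0645). Without MYC-PyMT replicate 1 it was called higher (1.28, adjusted p = 0.00105), and without replicate 2 it was not (0.26, adjusted p = 0.593). Gm2895, on the other strand at Ndrg1, had 25.2 and 81.3 in MYC-PyMT and 5.61 and 4.25 in Control-PyMT, few beside those of Ndrg1. Ankrd37, an ankyrin repeat protein gene (ENSMUSG00000050914.15, chr8:45996902-46005707, minus strand), had 316.0 and 531 in MYC-PyMT, against 310.5 and 159.7 in Control-PyMT. Its means were 423 ± 152 in MYC-PyMT and 235 ± 107 in Control-PyMT (SD, n = 2 each; log2 change 0.88, SE 0.36, 95% interval 0.07 to 1.68, adjusted p = 0.0705). As with Ndrg1, the replicate 1 libraries of the groups were almost level. It was called without MYC-PyMT replicate 1 (1.25, adjusted p = 0.00607) or without Control-PyMT replicate 1 (1.35, adjusted p = 0.0313), and its log2 change was 0.39 after removal of the length trend. The gene overlaps Ufsp2 on the other strand, which had 2314 and 2028 in MYC-PyMT and 1809.6 and 1449 in Control-PyMT, so its reads may be shared.

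**Figure D3:**
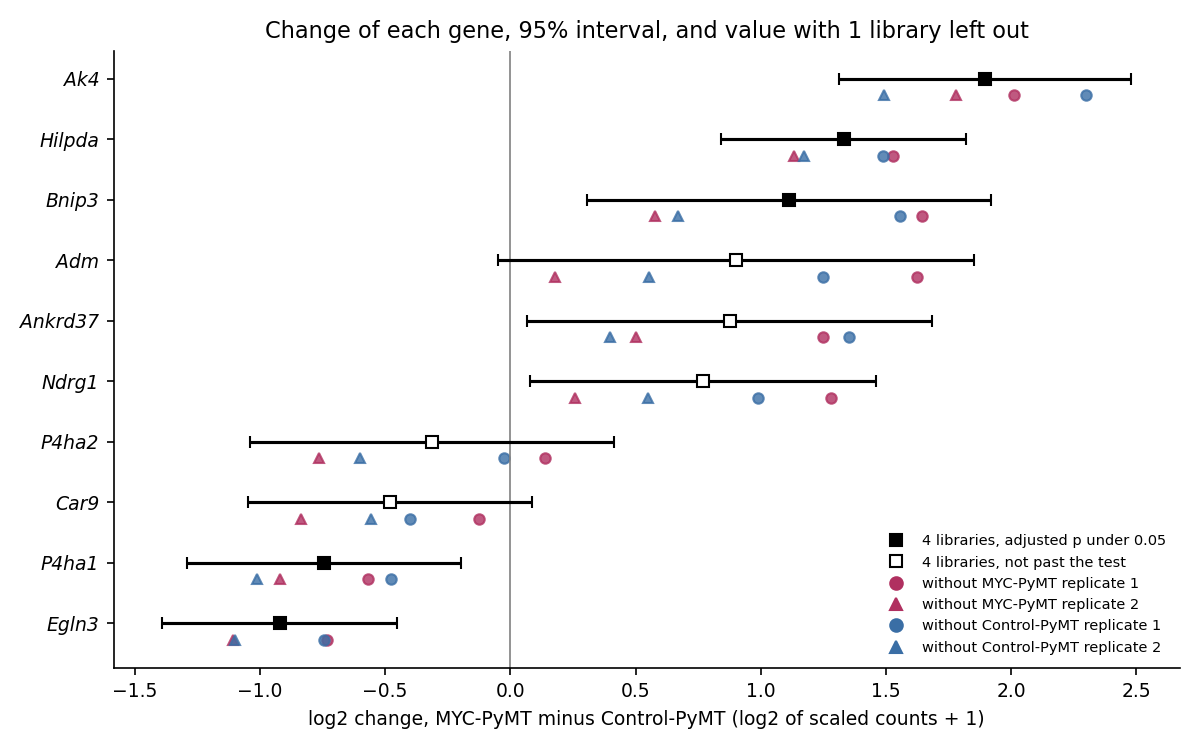
Log2 change, MYC-PyMT minus Control-PyMT, of each gene on the log2(scaled counts + 1) scale, with its 95% interval from limma (squares) and its value with 1 library left out (coloured points). Filled squares passed an adjusted p of 0.05. Ak4 and Hilpda stay above 1 in every fit drawn, whereas P4ha2 crosses 0 without MYC-PyMT replicate 1. The fit with the length trend removed, where Hilpda was at 0.91, is not drawn.

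A second pattern lay within the groups. All 10 genes were higher in MYC-PyMT replicate 2 than in replicate 1, and all 10 were higher in Control-PyMT replicate 1 than in replicate 2. Among all tested genes, 52.4% were higher in MYC-PyMT replicate 2, 55.7% in Control-PyMT replicate 1, and 31.9% in both. The median log2 difference between replicates came to 0.73 in MYC-PyMT and 0.55 in Control-PyMT for the 10 genes, and to 0.02 in MYC-PyMT and 0.07 in Control-PyMT for all genes. In MYC-PyMT it was largest for Adm (1.45), Bnip3 (1.07) and Ndrg1 (1.02) and smallest for Ak4 (0.23). In Control-PyMT it was largest for Ankrd37 (0.95), Bnip3 (0.89) and Ak4 (0.81) and smallest for Car9 (0.16). The libraries thus differed in the level of these genes within each group, and most for Adm, Bnip3 and Ndrg1 in MYC-PyMT. The labels do not say whether the replicate numbers pair samples of the 2 groups.

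**Figure D4:**
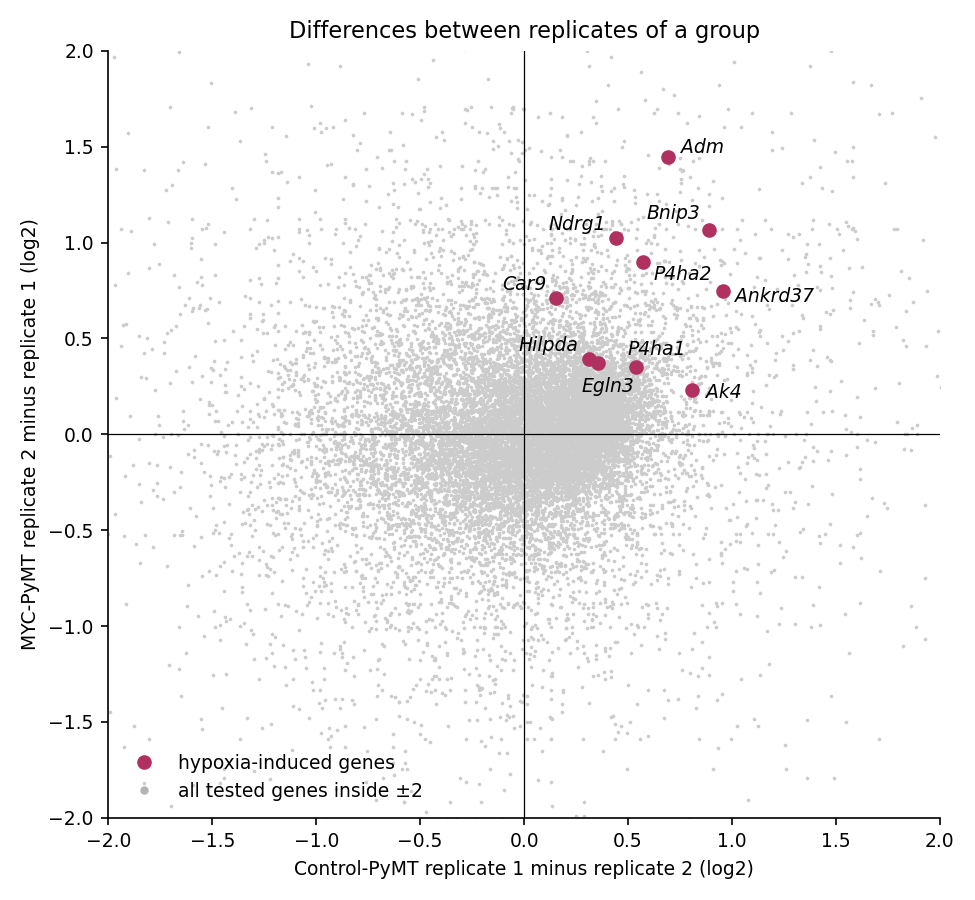
Log2 difference between the replicates of each group for the 10 genes (coloured) and all tested genes inside ±2 (grey), Control-PyMT on the x axis and MYC-PyMT on the y axis. All 10 genes lie in the upper right of the plot, against 31.9% of all tested genes.

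Other gene groups shared the within-group difference to unequal degrees. It had both directions in 11 of 18 hypoxia-induced glycolysis genes, 15 of 36 other hypoxia-induced genes, 2 of 11 HIF pathway genes and 0 of 12 lipid droplet genes. Among markers of other cell types it had both in 8 of 9 keratinocyte genes, 5 of 9 neutrophil genes, 1 of 10 endothelial, 1 of 10 fibroblast and 0 of 10 macrophage genes. The summed level of the keratinocyte markers was 4017 and 7387 in MYC-PyMT replicates 1 and 2 and 7189.8 and 3181 in Control-PyMT. Their defining marker Krt1 was near 0 in both MYC-PyMT libraries, at 4.03 and 6.59, against 778 and 249.7 in Control-PyMT. Between the groups, 7 of these 9 markers were lower in MYC-PyMT and 1 higher, Krt1 and Flg having passed the level minimum only through Control-PyMT. The summed neutrophil markers were 2871 and 4105 in MYC-PyMT and 3229 and 1074 in Control-PyMT, and 5 of 9 were called higher and 0 lower (limma; 0 also at an unadjusted p under 0.05). Of those 5, Camp, Ngp and Retnlg passed the level minimum only through MYC-PyMT and so had to be higher. The others were S100a9, called with any 1 library left out (log2 changes of 0.85 to 2.31), and Mmp8. Mmp8 was not called without Control-PyMT replicate 2 (0.72) or MYC-PyMT replicate 2 (1.20). S100a8, Csf3r, Cxcr2 and Mmp9 did not pass. The summed macrophage markers were 22198 and 23751 in MYC-PyMT and 26493 and 25917 in Control-PyMT, with 1 of 10 higher and 4 lower. The part of these cell types in the levels of the 10 genes was not tested. Nor was that of RNA quality, whose integrity numbers are not tied to samples.

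Because the 10 genes went up and down together within groups, each library was also centred on its own mean log2 value over them. That mean was 10.16 and 10.88 in MYC-PyMT replicates 1 and 2 and 10.36 and 9.79 in Control-PyMT. Centring on their own mean removes by construction what the 10 share, and the centred values sum to 0, so these differences describe the 10 relative to each other and are no test. Relative to the 10, Ak4 (1.45), Hilpda (0.89), Bnip3 (0.67), Adm (0.46), Ankrd37 (0.43) and Ndrg1 (0.33) were higher in MYC-PyMT on the log2 scale. Egln3 (-1.36), P4ha1 (-1.19), Car9 (-0.92) and P4ha2 (-0.76) were lower.

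Ratios within a library need no scaling, and 5 pairs were picked after the values were seen. Ak4 over Egln3 was 1.13 and 1.03 in MYC-PyMT and 0.179 and 0.131 in Control-PyMT. Hilpda over P4ha1 was 2.95 and 3.04 in MYC-PyMT and 0.657 and 0.768 in Control-PyMT. Hilpda over Car9 was 2.65 and 2.13 in MYC-PyMT and 0.714 and 0.640 in Control-PyMT. Bnip3 over Egln3 was 0.743 and 1.20 in MYC-PyMT and 0.277 and 0.192 in Control-PyMT. P4ha1 over P4ha2 was 1.91 and 1.31 in MYC-PyMT and 2.10 and 2.16 in Control-PyMT. The value of 1.91 in MYC-PyMT replicate 1 lay close to those of Control-PyMT. Each other pair set a gene seen higher in MYC-PyMT over one seen lower. Their unequal change was therefore fixed by the choice of pairs. A ratio also does not show which of its 2 genes moved.

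Levels of different genes were compared as mean scaled counts per kilobase of exon. Ndrg1 was the most abundant in both groups, at 5112 in MYC-PyMT and 2852 in Control-PyMT. In Control-PyMT it was followed by Egln3, and that pair overlapped between libraries, Ndrg1 at 3284 and 2420.2 and Egln3 at 2696 and 2107. In MYC-PyMT the order after Ndrg1 was Bnip3 (1823), Hilpda (1722), Egln3 (1269) and Ak4 (859). Bnip3, at 1178 and 2468, overlapped between libraries with Hilpda and also with Egln3, at 1105 and 1433. The other pairs among these genes did not overlap. Bnip3 and Hilpda had 826 and 682 in Control-PyMT, Egln3 2401 and Ak4 239. Ankrd37 (457), Adm (456) and Car9 (404) came next in MYC-PyMT and did not differ beyond their spread, with 254, 223 and 548 in Control-PyMT. P4ha2 (178) and P4ha1 (154) were lowest in MYC-PyMT, with 216 and 260.3 in Control-PyMT, and their libraries overlapped in both groups. In Control-PyMT the lowest 5, P4ha1, Ankrd37, Ak4, Adm and P4ha2, all overlapped.

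Other hypoxia-induced genes outside glycolysis also went both ways: of 36 tested, 12 were higher, 8 lower and 16 did not pass. Of all tested genes 23.3% were higher and 24.6% lower, and the 36 had a median log2 change of 0.11. With 1 library left out, 10 or 11 were higher and 3 to 5 lower, the fewest lower without MYC-PyMT replicate 1. Mif, a cytokine that acts on macrophages, rose to 11252 and 16544 scaled counts in MYC-PyMT, against 2029 and 2732 in Control-PyMT (log2 change 2.53, adjusted p = 4.37e-05). Ddit4, an inhibitor of mTORC1 signalling, rose to 8878 and 16004 in MYC-PyMT, against 3924 and 3140.1 in Control-PyMT (1.76, adjusted p = 0.000615). Angptl4, an inhibitor of lipoprotein lipase, Ero1l, an oxidase for disulfide bonds, and the transferrin receptor Tfrc were also higher (1.74, 1.51 and 1.45). The nuclear receptor gene Rora (-1.70, adjusted p = 0.000178), Car12 (-0.89) and the lipoprotein receptor gene Vldlr (-0.79, adjusted p = 0.00895) were lower, Vldlr not without MYC-PyMT replicate 1 (-0.61). Vegfa, the vascular growth factor and a textbook HIF target named here after its values were seen, had 3242 and 5534 in MYC-PyMT and 3972 and 3679 in Control-PyMT (0.15, adjusted p = 0.648).

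The glycolysis genes went mainly one way, whereas of all tested genes 23.3% were higher and 24.6% lower. Of 18 hypoxia-induced glycolysis genes, 13 were higher, 0 lower (limma; 0 also at an unadjusted p under 0.05) and 5 did not pass, with a median log2 change of 0.97. Without MYC-PyMT replicate 2, 8 were higher. The glucose transporter gene Slc2a3 and the enzyme genes Pgk1, Eno1, Hk2, Gapdh and Pgam1 were higher, at log2 changes of 1.88, 1.63, 1.63, 1.49, 1.32 and 0.99. Whether this list differs from the 10 genes was not tested.

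**Figure D5:**
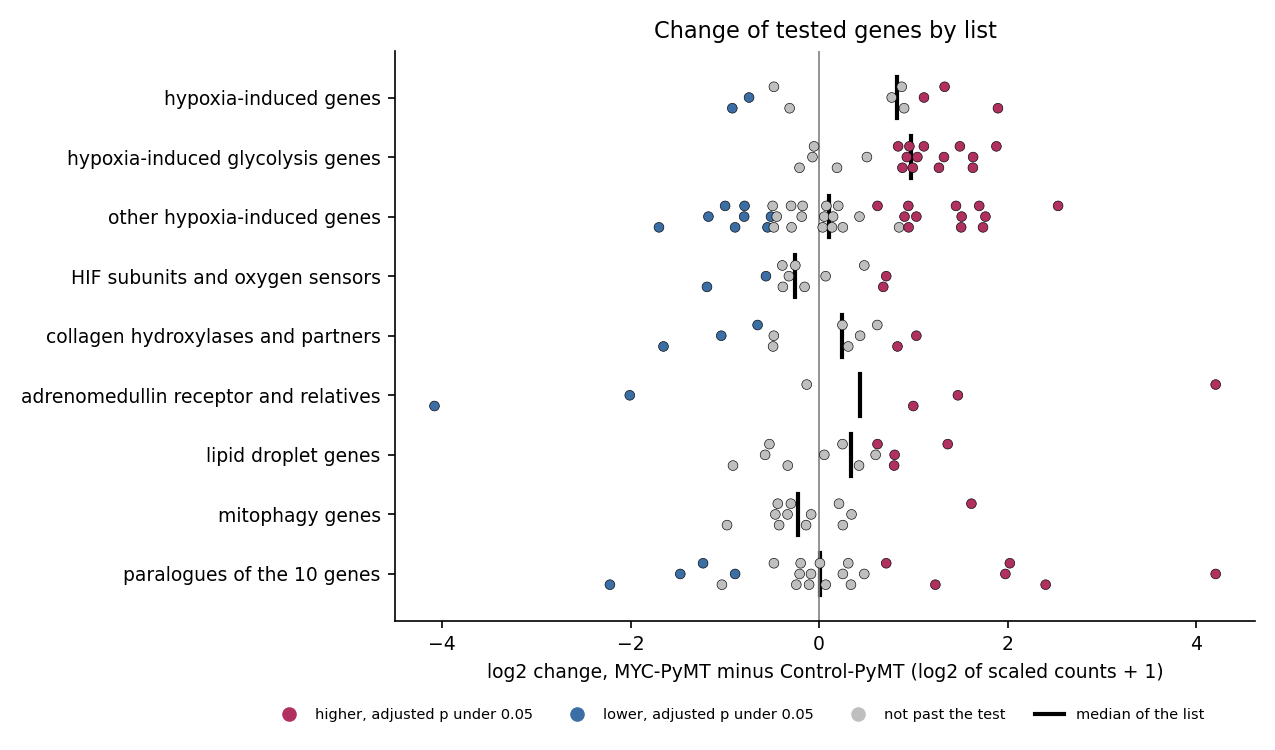
Log2 change, MYC-PyMT minus Control-PyMT, of every tested gene (points) in the 10 hypoxia-induced genes and the related lists, with the median of each list (vertical bar). Red points passed the test as higher, blue as lower, grey did not pass. The 10 genes spread on both sides of 0 around a median of 0.82, and the glycolysis list has 13 higher genes and 0 lower ones. Of all tested genes 23.3% were higher and 24.6% lower.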

How the data were processed

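Poly(A) RNA of 4 mouse mammary tumour samples, 2 MYC-PyMT and 2 Control-PyMT, was sequenced after a stranded TruSeq preparation, per the labels' protocols. Per the submitters' processing notes, the authors used HISAT2, mm10 (GRCm38.p5) and DESeq2; no source used here names the counter, its strand setting or the annotation. The deposited signal is scaled counts per gene, and every value was a whole multiple of a per-library step within 0.001 reads. Taken as 1 read, the steps would correspond to 34190913 and 31783846 reads in MYC-PyMT and 32245080 and 32879311 in Control-PyMT.

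From these values log2(value + 1) was tested with limma 3.58.1 (R 4.3.3; lmFit, eBayes with a variance trend), two-sided, over the 16725 genes reaching 10 in 2 or more libraries, with Benjamini-Hochberg adjustment. Fold changes are 2 to the power of the log2 change on that scale, which understates changes of low genes. They are not ratios of the printed means. With 2 libraries a side an exact test reaches no p below 0.33, so none was used. GENCODE release M21 (GRCm38) gave coordinates and exon lengths for 20463 of 20555 gene IDs, and RefSeq the promoters. Of lists with up to 12 genes any gene could be named. Of longer lists, the 6 called genes with the smallest p and 3 in the less frequent direction could be named. Ak3 and Vegfa fall outside this rule and were named after their values were seen. Mouse Myc and the overlapping genes Gm12454, Gm2895 and Ufsp2 are on none of the lists and so also fall outside it. The 10 genes and all lists were chosen with earlier results of these data known. Genes under the level minimum, such as Calcb and Hif3a, were not tested. Alternatives were other pseudocounts, filters and scalings, no variance trend, a replicate block, a length correction, another threshold and leaving out each library.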

Additional observations from a re-analysis of the deposited data

How the results depend on the processing

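Of 130 alternative values of the 10 genes' log2 changes, 111 kept their direction and side of the threshold, 8 newly passed, 10 no longer passed and 1 turned round: P4ha2, at 0.14 without MYC-PyMT replicate 1 and between -0.76 and 0.14 over the left-out libraries. Ak4 and Hilpda were called in every alternative run. The number of the 10 genes called higher was 6 with the replicate block and 5 at an adjusted p under 0.10, and the number called lower was 1 without the variance trend and 1 with the length trend removed. Leaving out 1 library gave 2 to 6 higher and 0 to 3 lower, and over all genes 2566 to 3662 higher. The labels do not say whether replicate numbers pair the samples. With 2 libraries per group, the correlation of same-numbered deviations (-0.0886 over 16725 genes) cannot decide it. The block is shown only for completeness, and with it Ndrg1, Ankrd37 and Adm also passed. Upper-quartile scaling moved the median of all genes to -0.13.

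Counts in the related lists moved in 43 of 224 alternatives. With upper-quartile scaling 5 collagen, 1 lipid droplet and 3 mitophagy genes were lower. Without the variance trend 0 HIF pathway genes were higher and 1 lower, 3 other hypoxia genes were lower, and 1 collagen and 2 lipid droplet genes were higher. With the replicate block 1 HIF pathway, 2 lipid droplet and 1 mitophagy gene were lower. With the length trend removed 1 HIF pathway and 5 other hypoxia genes were lower, 2 lipid droplet genes were higher, and 2 mitophagy genes were higher and 2 lower. With a filter of 50, 1 adrenomedullin gene was lower. At an adjusted p under 0.10, 5 collagen, 2 lipid droplet and 2 mitophagy genes were lower. Leaving out 1 library gave 0 to 3 higher and 1 to 2 lower HIF pathway genes, 3 to 5 lower other hypoxia genes, 8 to 14 higher glycolysis genes, 0 to 2 higher and 1 to 3 lower collagen genes, 1 to 3 higher and 1 to 2 lower adrenomedullin genes, 1 to 5 higher and 0 to 2 lower lipid droplet genes, and 0 to 1 lower mitophagy genes. The cause of these moves was not tested. Count tests with edgeR and DESeq2, planned as alternatives, were not run, although the values are whole multiples of a step: the step of MYC-PyMT replicate 1, 1.01, is too near 1 for its reads to pass as recovered under the rule applied. With 2 libraries per group, the 95% intervals of P4ha2, Car9 and Adm include 0, and no detectable size was computed.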
